A study of Mus musculus with 8 samples.

Results

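The vascular endothelial growth factor and adrenomedullin systems were examined in RAW264.7, a line of mouse cells that resemble macrophages, after treatment with recombinant follistatin-like 1 (rFSTL1). The 10 genes were chosen by symbol, as ligands of these pathways (Vegfa, Vegfb, Pgf, Adm) and as receptors or receptor partners (Flt1, Nrp1, Nrp2, Calcrl, Ramp1, Ramp2), out of 22013 genes in the deposited table. Vegfa and Adm were picked because an earlier analysis of the same libraries had found them higher under rFSTL1, so their difference between the groups is given here as a description and not as a test. RNA was sequenced from 4 libraries of cells treated with rFSTL1 at 100 ng/mL for 24 h and 4 libraries of cells given PBS. All 8 libraries came from this same line. Means are given ± SD over the 4 libraries of a group. Nothing in the sources states whether the libraries of a group came from separate cultures, so the spread between them may be technical. In such bulk samples, a change in the share of cells that express a gene and a change in RNA per cell cannot be told apart.

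Vegfa encodes VEGF-A, the main growth factor for blood vessels, and Vegfb and Pgf encode relatives that bind the receptor tyrosine kinase VEGFR1, the product of Flt1. Neuropilins, encoded by Nrp1 and Nrp2, are co-receptors that bind VEGF ligands and class 3 semaphorins. Adm encodes adrenomedullin, a peptide that dilates vessels and strengthens the endothelial barrier through the receptor encoded by Calcrl, which reaches the cell surface only together with a receptor activity modifying protein (RAMP). Macrophages are a known source of VEGF-A and adrenomedullin, and both genes are well known targets of hypoxia-inducible factors.

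Vegfa lies at chr17:46016993-46032369 on the minus strand and Adm at chr7:110627661-110629820 on the plus strand (GRCm38, GENCODE M21). The build behind the counts is not given in the sources used here, and the genes were matched by Ensembl identifier. An antisense gene, Gm28863, overlaps Adm in that annotation, it has no row in the count table, and whether reads were counted by strand is not given in the sources used here. The 250 bases before the annotated start of each gene are shown because Vegfa and Adm are the members that differed between the groups. They come from RefSeq (GRCm38.p6), at chr7:110627407-110627656 on the plus strand for Adm and at chr17:46032378-46032627 on the minus strand for Vegfa, and both windows end before the first base of the GENCODE gene. Capitals mark the core of the hypoxia response element, ACGTG or GCGTG, or its complement on the other strand.

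Adm: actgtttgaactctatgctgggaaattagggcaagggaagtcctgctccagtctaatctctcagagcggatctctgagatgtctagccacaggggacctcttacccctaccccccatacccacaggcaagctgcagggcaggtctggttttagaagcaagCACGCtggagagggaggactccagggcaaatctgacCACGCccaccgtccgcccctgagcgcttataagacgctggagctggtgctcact

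Vegfa: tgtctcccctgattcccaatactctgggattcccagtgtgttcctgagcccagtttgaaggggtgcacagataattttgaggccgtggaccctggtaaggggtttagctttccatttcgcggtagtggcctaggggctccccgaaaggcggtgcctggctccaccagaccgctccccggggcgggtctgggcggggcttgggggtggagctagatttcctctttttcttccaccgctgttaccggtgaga

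The Adm window held 2 matches, 90 and 54 bases before the start and both on the opposite strand, and this Vegfa window held none. A second annotated start of Vegfa, inside the gene at chr17:46025164-46025413, had 2 matches in its window. RefSeq windows were found for 9 of the 10 members and gave 11 windows, of which 7 held the core, against 38.6% of 32851 windows of the same length over all genes. The AP-1 letters TGANTCA were in 0 of the 11 member windows and in 6.75% of all windows. A loose NF-κB motif (3 G, any 5 bases, 2 C) was in 6 of the 11 and in 45.8% of all windows. The GC content of the member windows was 48.4% to 76.4%, against a median of 52.4% over all windows. Motifs were searched on both strands, matches of different motifs may overlap, and a match is a string of letters and not a measured site.

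The total count per library was 15062023 to 20234477, and estimated counts were scaled to counts-per-million (CPM) values with TMM factors of 0.9883 to 1.012. Of 10748 genes that passed the count filter, 37 (0.344%) had an adjusted p under 0.05, 35 higher under rFSTL1 (0.326%) and 2 lower (0.0186%), by the quasi-likelihood test of edgeR (adjusted after Benjamini-Hochberg). Chi-square per degree of freedom between libraries of a group was 3.024 to 4.145 for PBS and 4.42 to 18.38 for rFSTL1, highest between rFSTL1 replicates 2 and 4. Macrophage markers were present, with a summed level of 4699 to 4850 CPM under PBS and 4761 to 4928 CPM under rFSTL1. The highest were Csf1r, Lyz2, Cd68 and Cd14, with means of 1255, 1163, 896 and 810 CPM under PBS. Adgre1, which encodes F4/80, was low with a mean of 3.43 CPM under PBS, and Mrc1 was near 0 at 0.226 CPM. The 12 endothelial markers summed to 5.43 to 8.50 CPM under PBS and 5.73 to 6.68 CPM under rFSTL1. Egfl7, Vwf and Eng were the highest, with counts in every library and means of 2.23, 2.05 and 1.43 CPM under PBS. Cldn5, Emcn and Robo4 were at 0 in all libraries. The 7 fibroblast markers summed to 0 to 1.46 CPM under PBS and to at most 0.105 CPM under rFSTL1. Among the PBS libraries, Col1a2, Col3a1 and Dcn had counts only in replicates 1 and 2. The 5 epithelial markers summed to at most 0.308 CPM in any library.

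Of the 10 members, 7 passed the count filter, and 2 of the 10, Vegfa and Adm, had an adjusted p under 0.05, both higher under rFSTL1, against 0.326% of all genes tested. The groups did not overlap for the same 2 members, both higher under rFSTL1, and for 0 members in the other direction, against 4.63% and 3.53% of all genes. Since these genes were picked for this contrast, nothing is read from these counts. The other 5 tested members, Vegfb, Flt1, Nrp1, Nrp2 and Calcrl, did not pass the threshold. The remaining members, Pgf, Ramp1 and Ramp2, had 16, 0 and 4 counts over all 8 libraries and were not tested. The level of each tested member in each library is plotted first, on an axis that starts at 0.

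**Figure D1:**
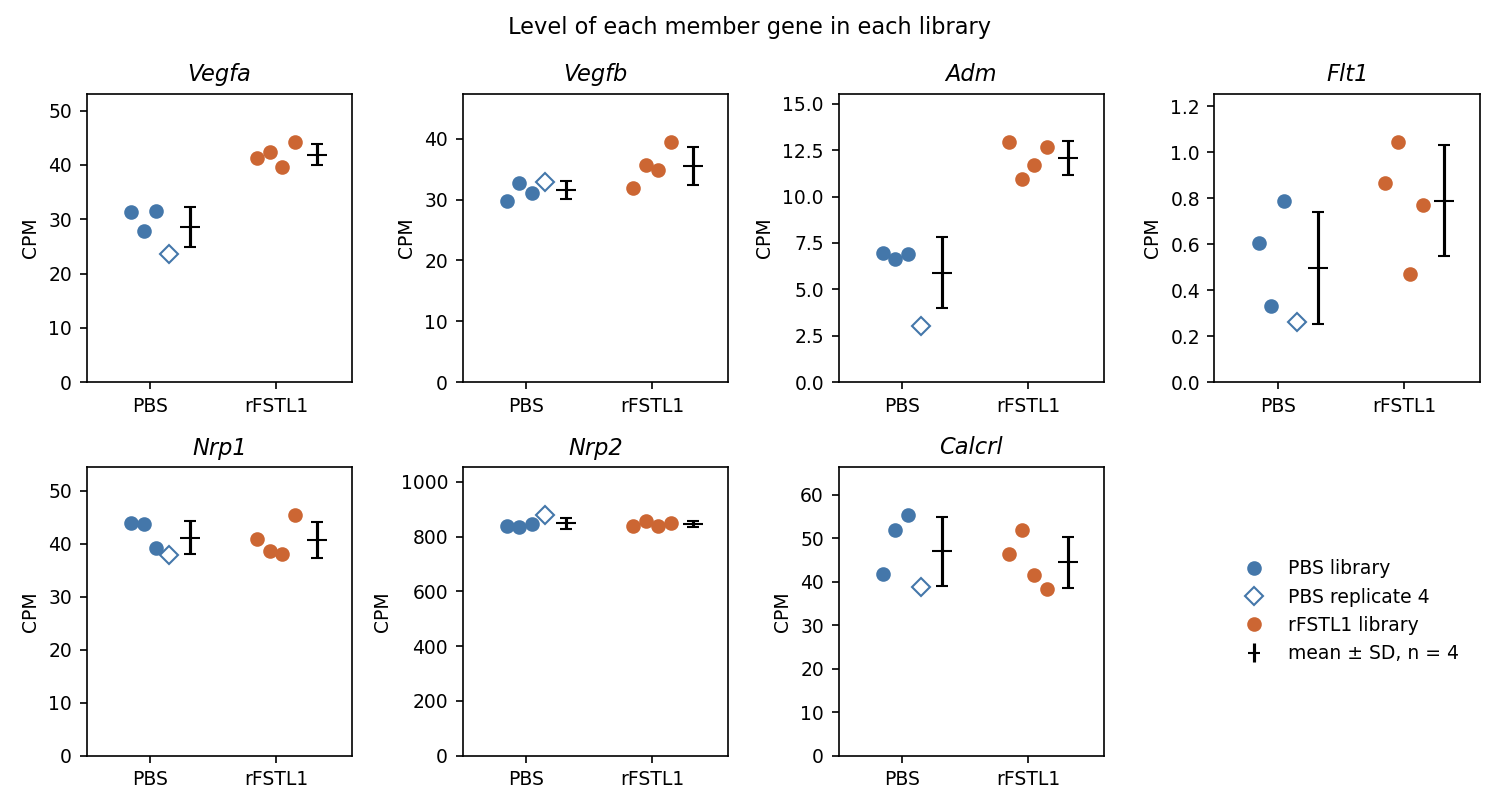
Level of the 7 tested members in CPM (vertical axis, from 0) in each library, with PBS libraries in blue, PBS replicate 4 as an open diamond, rFSTL1 libraries in orange, and the mean ± SD of each group (n = 4) as a black bar. For Vegfa (39.6 to 44.3 CPM under rFSTL1) and Adm (10.96 to 12.96 CPM) the rFSTL1 libraries all lie above the PBS libraries, and for the other 5 genes the groups overlap.

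Among the ligands, Vegfa (ENSMUSG00000023951) was measured at 31.3, 27.9, 31.4 and 23.7 CPM in PBS replicates 1 to 4. It was at 41.4, 42.4, 39.6 and 44.3 CPM in rFSTL1 replicates 1 to 4. The lowest PBS library was replicate 4, and the groups did not overlap. The mean was 28.6 ± 3.66 CPM (n = 4) in the PBS group and 41.9 ± 1.98 CPM (n = 4) in the rFSTL1 group, a ratio of 1.47. The fitted log2 fold change was 0.55 with a standard error of 0.08, and Vegfa was the 98th of 10748 genes by that value. The spread between libraries was smaller under rFSTL1 than under PBS. The PBS spread included replicate 4, and the other PBS libraries lay at 27.9 to 31.4 CPM. Vegfa was past the threshold in each of the 8 fits that left out 1 library, with log2 fold changes of 0.47 to 0.60.

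Adm (ENSMUSG00000030790), the adrenomedullin gene, had a level of 6.98, 6.64, 6.91 and 3.02 CPM in PBS replicates 1 to 4. Under rFSTL1 it was at 12.96, 10.96, 11.7 and 12.7 CPM in replicates 1 to 4. The other 3 PBS libraries lay close together, PBS replicate 4 lay far below them, and the groups did not overlap. The mean was 5.89 ± 1.92 CPM (n = 4) in the PBS group and 12.1 ± 0.915 CPM (n = 4) in the rFSTL1 group, a ratio of 2.05. The fitted log2 fold change was 1.02 with a standard error of 0.18, the 10th largest of the 10748 genes tested. Without PBS replicate 4 it was 0.81 with a 95% interval of 0.58 to 1.05, and Adm still passed the threshold. The call was lost without PBS replicate 2 (log2 fold change 1.08), PBS replicate 3 (1.11) or rFSTL1 replicate 3 (1.04).

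Vegfb (ENSMUSG00000024962), whose product binds VEGFR1 but not the main endothelial receptor VEGFR2, was at 29.7, 32.8, 31.0 and 32.9 CPM under PBS. Its levels under rFSTL1 were 31.9, 35.7, 34.8 and 39.5 CPM. The groups overlapped, with rFSTL1 replicate 1 below PBS replicates 2 and 4. The log2 fold change was 0.17 with a 95% interval, not adjusted for the number of genes, of 0.02 to 0.32. Pgf, the placental growth factor gene, had 0 to 5 counts in each PBS library and 0 to 2 in each rFSTL1 library, which is too few to compare. The level of Vegfa relative to Vegfb, both per kb of transcript, was 0.391, 0.316, 0.376 and 0.267 in the PBS libraries and 0.416 to 0.481 in the rFSTL1 libraries, with no overlap.

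Among the VEGF receptors and co-receptors, Flt1 (ENSMUSG00000029648) was at the edge of detection, with 4 to 16 counts in each PBS library and 9 to 17 in each rFSTL1 library. Its levels were 0.607, 0.332, 0.790 and 0.263 CPM under PBS and 0.869, 1.05, 0.471 and 0.770 CPM under rFSTL1, and the groups overlapped. The log2 fold change of 0.60 had a 95% interval of -0.25 to 1.45, which includes both 0 and the fitted value of Adm.

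Nrp2, the more abundant neuropilin gene, had the smallest standard error of the members tested. Nrp2 (ENSMUSG00000025969) was at 838, 833, 847 and 878 CPM under PBS and at 837, 857, 839 and 849 CPM under rFSTL1, a range of a few percent over all 8 libraries. Its log2 fold change was -0.01, with a 95% interval of -0.08 to 0.07. Nrp1 (ENSMUSG00000025810), the paralog that is the usual partner of VEGFR2 in endothelium, was at 43.9, 43.7, 39.2 and 37.9 CPM under PBS. Under rFSTL1 it was at 40.9, 38.6, 38.0 and 45.4 CPM, within the PBS range but for replicate 4. Its log2 fold change was -0.01, with a 95% interval of -0.16 to 0.13. The intervals of both genes leave out the fitted fold change of Vegfa. Since Vegfa was picked for being higher in these libraries, this is a description and not a test. Per kb of transcript, Nrp2 was 10.1 to 12.6 times as high as Nrp1 in every library, with a mean of 11.2 ± 1.10 (n = 4) in the PBS group and 11.3 ± 0.893 (n = 4) in the rFSTL1 group.

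On the receptor side of adrenomedullin, Calcrl (ENSMUSG00000059588) was at 41.9, 52.0, 55.4 and 38.9 CPM under PBS. It was at 46.3, 51.9, 41.6 and 38.4 CPM under rFSTL1, and the groups covered nearly the same range. The log2 fold change was -0.09 with a 95% interval of -0.31 to 0.14, and it was -0.17 without PBS replicate 4. The partners that take the calcitonin receptor-like receptor to the cell surface were at or near 0. Ramp1 had 0 counts in all 8 libraries, which allows a level of up to 0.148 to 0.199 CPM per library (3 counts, counting error only). Ramp2 had 1 count in PBS replicate 2, an estimated count rounded to 3 in PBS replicate 4, and 0 in the other libraries. It overlaps the gene Vps25 on the same strand in GENCODE M21, and how the authors' counting split shared reads is not given in the sources used here. The third family gene, Ramp3, which is not a member, also had 0 counts in all libraries.

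**Figure D2:**
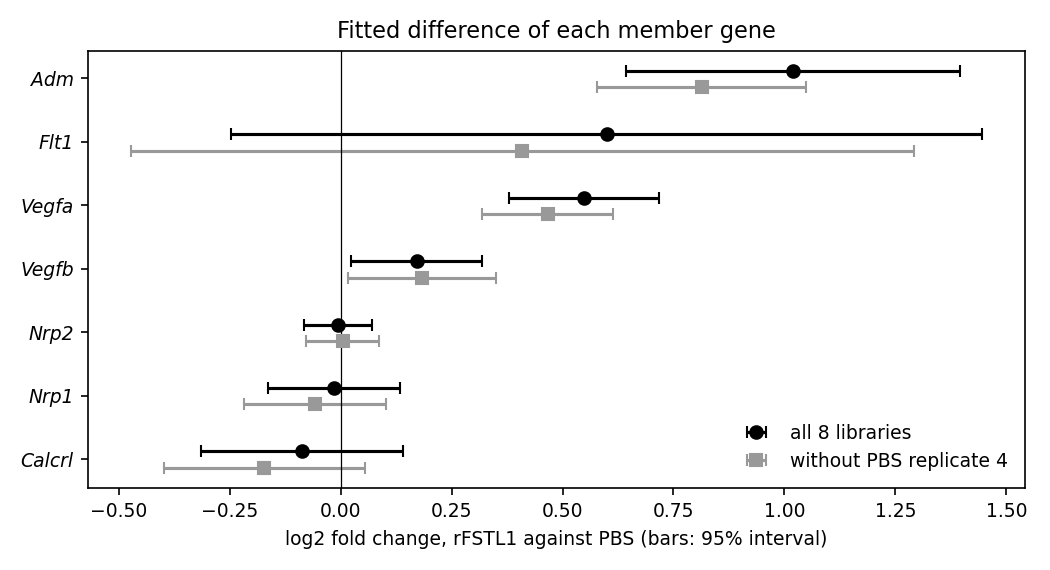
Fitted log2 fold change of the 7 tested members, rFSTL1 against PBS (horizontal axis), with bars for the 95% interval, from all 8 libraries (black circles) and without PBS replicate 4 (grey squares). The intervals of Adm (0.64 to 1.40) and Vegfa (0.38 to 0.72) lie above those of Nrp1, Nrp2 and Calcrl. Adm and Vegfa were picked for being higher in these libraries, so this is a description and not a test. Leaving out PBS replicate 4 moves Adm from 1.02 to 0.81.

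Levels were also compared between the members per kb of each gene's longest GENCODE transcript, a scale for levels and not for differences. Under PBS the order was Nrp2 (126 CPM per kb), Vegfb (24.7), Nrp1 (11.3), Calcrl (9.63), Vegfa (8.28), Adm (4.24) and Flt1 (0.0722). Nrp2 was above 96.2% of all genes tested on this scale, Vegfa above 41.4% and Adm above 25.2%. In that order, Nrp1 (10.4 to 12.0 CPM per kb) and Calcrl (7.97 to 11.3) overlapped between libraries, as did Calcrl and Vegfa (6.85 to 9.11), while Vegfa and Adm (2.17 to 5.02) did not. Under rFSTL1, Vegfa, at 11.5 to 12.8 CPM per kb, lay in and above the range of Nrp1 (10.4 to 12.5), and Adm, at 7.89 to 9.32, lay within that of Calcrl (7.88 to 10.6). The level of Adm relative to Vegfa per kb was 0.502 ± 0.125 (n = 4) in the PBS group and 0.717 ± 0.0569 (n = 4) in the rFSTL1 group. In single libraries this ratio was 0.317 in PBS replicate 4, 0.546 to 0.591 in the other PBS libraries and 0.642 to 0.778 under rFSTL1.

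**Figure D3:**
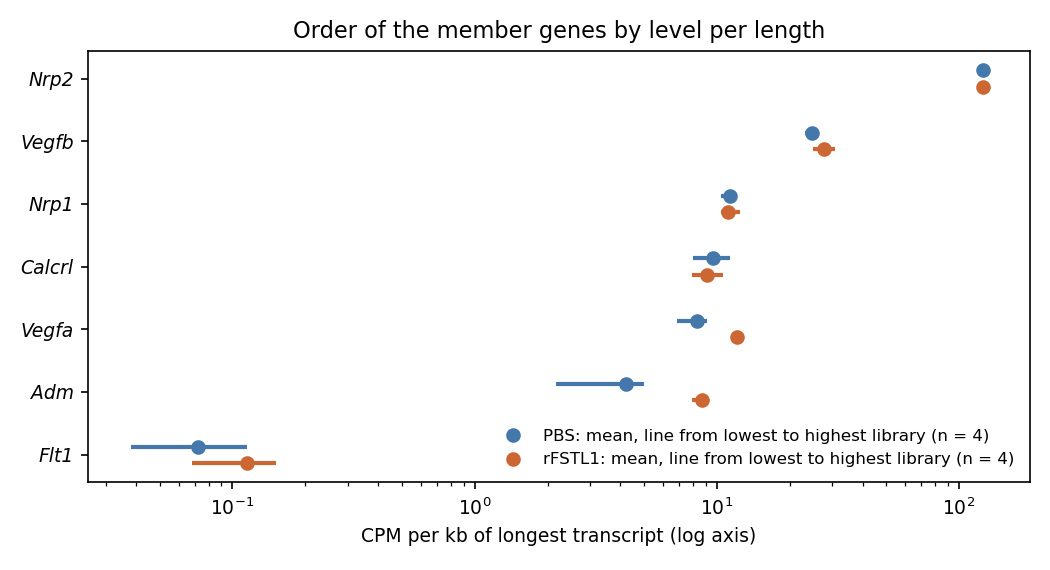
Level per length of the 7 tested members, in CPM per kb of the longest transcript on a log axis, with the mean (point) and the range from the lowest to the highest library (line) of each group (n = 4). Nrp2 stands highest near 126 in both groups, Flt1 lowest near 0.1, and the ranges of the groups are apart for Vegfa and Adm.

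PBS replicate 4 was then compared with the other 3 PBS libraries, a comparison within the control group. This library was singled out because an earlier analysis of the same data had found Adm low in it, so its values of Adm are a description. Its 46 counts of Adm corresponded to 3.02 CPM, with an exact Poisson 95% interval of 2.21 to 4.03 CPM that covers counting error only, against 6.64 to 6.98 CPM in the others. The ratio to the mean of the others was 0.442. Vegfa had a ratio of 0.783 and Calcrl of 0.782. Vegfb, at 1.05, and Nrp2, at 1.05, were not lower in this library. Flt1, at 0.456, rested on 4 counts. In all, 5 of the 7 tested members, Adm included, were lowest in PBS replicate 4, as were 26.7% of all genes tested.

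The genes that accompany Vegfa and Adm in the response to low oxygen were low in the same library. Of 18 tested genes from a list of 20 widely used hypoxia-inducible genes, 17 were lowest in PBS replicate 4 among the PBS libraries, with a median ratio to the others of 0.871 against 0.998 over all genes tested. The 4 lowest ratios were those of Ddit4, Ankrd37, Bnip3 and Ndrg1, and the other 14 lay between 0.831 and 0.971. Ddit4, an inhibitor of mTORC1 signaling, had a ratio of 0.598 and Ankrd37, an ankyrin repeat gene, 0.633. Bnip3, a mitophagy receptor, had a ratio of 0.728, and Ndrg1, a stress-responsive gene, 0.753. The 1 exception was Car9, which encodes a carbonic anhydrase, with a ratio of 0.946. These 5 genes are named here after their values were seen.

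**Figure D4:**
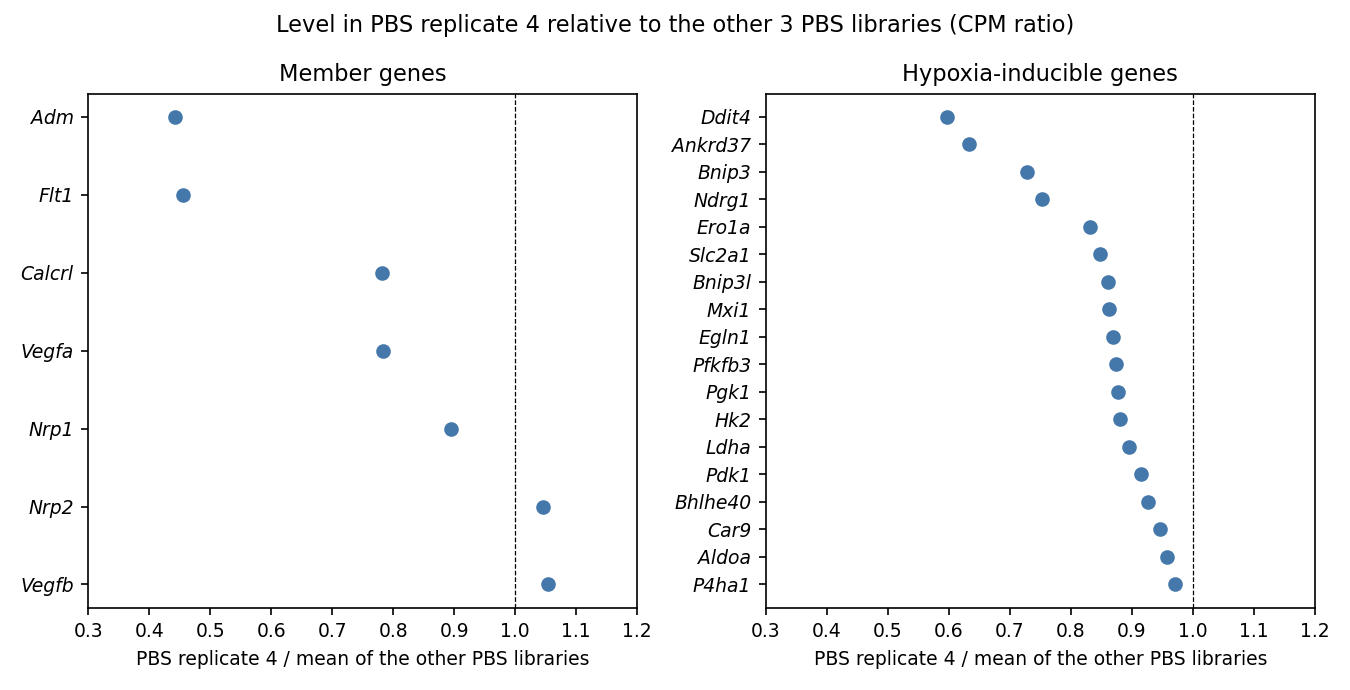
Level in PBS replicate 4 divided by the mean of the other 3 PBS libraries (CPM ratio, horizontal axis; the dashed line marks 1) for the 7 tested members (left) and for 18 hypoxia-inducible genes (right). Adm has the lowest ratio at 0.442, Vegfb and Nrp2 lie just above 1, and all 18 hypoxia-inducible genes lie below 1.

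The same list was examined between the groups. Of the 18 tested genes, 4 were higher under rFSTL1 and 0 lower by the same edgeR test (0.326% of all genes tested were higher), and the median log2 fold change was 0.22 against 0.01 over all genes. This list was written with earlier results of these libraries known, and is not independent support. Ndrg1 rose from 151 ± 20.5 CPM (n = 4) to 215.9 ± 10.99 CPM (n = 4), or by 0.51 on the log2 scale (adjusted p = 0.00676 by edgeR with Benjamini-Hochberg adjustment). Slc2a1, which encodes the glucose transporter GLUT1, rose by 0.38 on the log2 scale, with an adjusted p of 0.00676 by the same edgeR test. Bnip3 (0.43, adjusted p = 0.0366 by edgeR) and Pfkfb3, which encodes a regulator of glycolysis (0.27, adjusted p = 0.0345 by edgeR), were higher too. Among the most abundant members of the list, Ldha, Pgk1 and Aldoa, enzymes of glycolysis, had log2 fold changes of 0.13, 0.20 and 0.21. They did not pass by the same edgeR test. The groups did not overlap for Pgk1 and Aldoa, which were called by DESeq2, by limma voom and without the count filter. Over the list, the groups did not overlap for 13 of 18 genes, all higher under rFSTL1 (4.63% of all genes), and 16 of 18 had an unadjusted p under 0.05 (15.9% of all genes). Without PBS replicate 4 the count was 3 genes, without Pfkfb3, and the median log2 fold change was 0.18. Without PBS replicate 2, PBS replicate 3 or rFSTL1 replicate 3 only Ndrg1 and Slc2a1 were called. Bnip3 and Pfkfb3 were also lost without rFSTL1 replicate 1, while Aldoa was called without rFSTL1 replicate 1 or 2. DESeq2 called 9 genes of the list and limma voom 10, against 1.83% and 4.22% of all genes.

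The rest of the angiogenic system was described from gene lists written for these pathways. None of the 4 other VEGF ligands and receptors passed the count filter. Their summed level was at most 0.443 CPM in any library, and Vegfc was at 0. Kdr, which encodes VEGFR2, had at most 5 counts in a library. Of 10 other genes of adrenomedullin and its relatives, 7 had 0 counts in all libraries and 2 were tested. Pam, which encodes the enzyme that amidates adrenomedullin, was at 63.6 ± 2.55 CPM (n = 4) in the PBS group and 66.9 ± 2.53 CPM (n = 4) in the rFSTL1 group, a log2 fold change of 0.07 that did not pass. Gpr182, an atypical receptor gene, stood at 0.370 ± 0.217 CPM and 0.590 ± 0.257 CPM (n = 4).

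Semaphorins and plexins are families of guidance ligands and receptors, of which class 3 semaphorins and A-type plexins act with neuropilins. Of 17 semaphorin and plexin genes, 8 were tested, 4 had a positive and 4 a negative fold change, and the values ran from -0.11 to 0.13 on the log2 scale. Plxnb2, at 566.9 ± 18.8 CPM under PBS and 591.5 ± 50.5 CPM under rFSTL1 (n = 4), and Sema4d, at 237.9 ± 4.18 and 242.1 ± 23.3 CPM, were the most abundant. Plxnd1 and Plxna2 had log2 fold changes of 0.05 and -0.05. Class 3 semaphorins, which are secreted, were at or near 0, with a mean of at most 0.135 CPM under PBS.

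Of 8 angiopoietin and Tie genes, 4 were tested. Angpt2, which antagonizes the Tie2 receptor in most settings, was at 12.4 ± 0.880 CPM under PBS and 12.9 ± 1.296 CPM under rFSTL1 (n = 4). Angptl4, an inhibitor of lipoprotein lipase and a known hypoxia and PPAR target, was at 8.62 ± 0.869 and 7.10 ± 0.874 CPM (n = 4) and had a log2 fold change of -0.27. Angptl2, the most abundant, had a log2 fold change of 0.12 and Angptl6 of 0.61, at 1.57 ± 0.450 and 2.42 ± 0.286 CPM (n = 4), and none of the 4 passed. The 4 tested inhibitors of vessel growth of a list of 12, Serpinf1, Vash2, Cxcl10 and Timp2, had fold changes of -0.55 to -0.17 on the log2 scale at mean levels of at most 3.59 CPM under PBS, and none passed. In the adrenomedullin, semaphorin and inhibitor lists 0 tested genes had an unadjusted p under 0.05, and 2 of 4 did in the angiopoietin list, Angptl4 and Angptl6, against 15.9% of all genes. DESeq2 and limma voom called 0 genes in each of these 4 lists, against 1.83% and 4.22% of all genes.

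Of 21 other promoters of vessel growth, 10 were tested, 8 with a positive fold change, and none passed by edgeR, while 5 had an unadjusted p under 0.05. Plau, which encodes urokinase, was at 593.5 ± 25.7 CPM under PBS and 667.6 ± 22.0 CPM under rFSTL1, and Mif, a cytokine gene, was at 426.2 ± 20.7 and 512.9 ± 50.8 CPM (n = 4). The groups did not overlap for either gene, nor for Pdgfb, a platelet-derived growth factor gene, at 64.2 ± 4.58 and 79.5 ± 7.90 CPM (n = 4). In the other direction, the groups did not overlap for Jag1, a Notch ligand gene, at 10.3 ± 0.628 and 8.69 ± 0.756 CPM (n = 4). These 3 genes higher and 1 lower, of 10, stand beside 4.63% and 3.53% of all genes. Grn and Tgfb1 had log2 fold changes of 0.06 and 0.09. Over the 6 lists of other angiogenic genes, 0 of 28 tested genes passed by edgeR, against 0.344% of all genes. At that share, nothing is read from a count of 0 in lists of this size. Of the 28, 7 had an unadjusted p under 0.05, as did 15.9% of all genes. DESeq2 called 4 of the 28 and 1.83% of all genes. For limma voom with sample quality weights it was 4 of the 28 and 4.22% of all genes. In both cases the genes were Plau, Mif, Pdgfb and Plaur, which encodes the urokinase receptor. Pdgfb, Plaur and Jag1 are named here after their values were seen.

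Most regulators known to act on Vegfa or Adm were detected in both groups. Of 13 transcription factors, 12 were tested and none passed by edgeR (0.344% of all genes). Of the 12, 6 had an unadjusted p under 0.05 (15.9% of all genes). DESeq2 called 0 of them (1.83% of all genes) and limma voom 2, 1 higher and 1 lower (4.22% of all genes). Hif1a, the oxygen-regulated subunit of HIF-1, whose activity is set mostly at the protein level, was at 325 ± 6.45 CPM under PBS and 297.6 ± 21.5 CPM under rFSTL1 (n = 4), a log2 fold change of -0.13. Epas1, the gene for HIF-2α, had a mean of 0 CPM under PBS and 0.0128 CPM under rFSTL1. Atf4, Nfe2l2 and Sp1 had log2 fold changes of 0.11, -0.08 and -0.04. The groups did not overlap for 2 of the 12, Atf4 among them, both higher under rFSTL1 (4.63% of all genes). All 12 RNA-binding factors known to act on these mRNAs were tested. None passed by edgeR, DESeq2 or limma voom (0.344%, 1.83% and 4.22% of all genes), and 1 had an unadjusted p under 0.05 (15.9%). Hnrnpa2b1, Srsf1, Eprs1 and Hnrnpl, the most abundant, had log2 fold changes of -0.03, -0.12, -0.05 and 0.08.

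**Figure D5:**
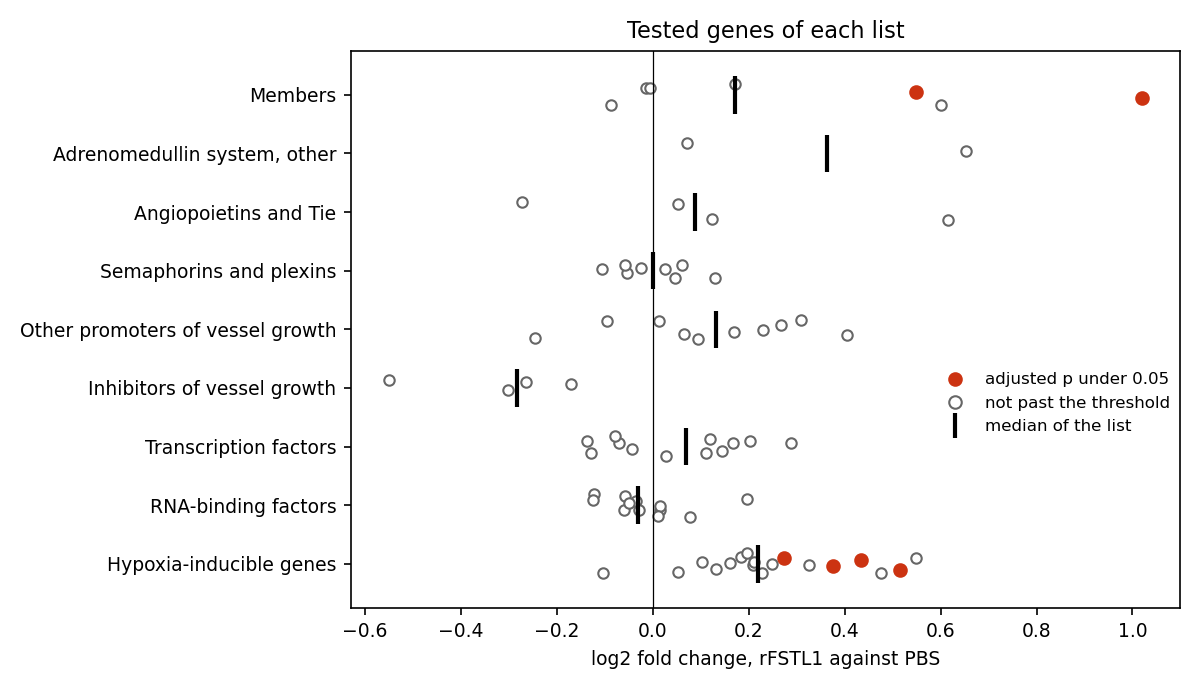
Log2 fold change (horizontal axis, rFSTL1 against PBS) of each tested gene in 9 lists, with filled red points for genes at an adjusted p under 0.05, open points for the others and a black bar at each list's median. The filled points are Vegfa and Adm among the members and 4 of 18 hypoxia-inducible genes, and the medians of the other lists lie between -0.28 and 0.36.

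The genes with profiles most like those of Vegfa and Adm were found from the root mean square difference of centred log2 CPM over the 8 libraries, among 9342 genes with a mean of at least 5 CPM. Closest to Vegfa were Ndrg1 (0.0791), Hilpda (0.0846), Cdkn1a (0.0873), Slc2a1 (0.106) and Eno2 (0.107). They encode, in that order, a stress-responsive protein, a lipid droplet protein, the cell cycle inhibitor p21, GLUT1 and an enolase. Closest to Adm was Selenbp1, a selenium-binding protein gene, with a difference of 0.163. Ankrd37 (0.328), Ier3 (0.354) and Ddit4 (0.374) were also among the closest. Vegfa was the 7th closest to Adm (0.382), while at the same distance Adm was the 8253rd closest to Vegfa. The measure is not scaled for the size of a gene's differences, and the log2 fold change was 1.02 for Adm and 0.55 for Vegfa. This rank therefore does not show that the profiles differ in direction. The likeness includes the difference between the groups, for which Vegfa and Adm were picked, and is given as a description.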

How the data were processed

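RAW264.7 cells treated with PBS or rFSTL1 were profiled by RNA-seq of poly(A) RNA, with 4 libraries in each group. The authors deposited estimated counts (expected counts) per Ensembl gene without normalization, of which 13% of the nonzero values were not whole, and these were rounded. Per the labels, the submitters' processing notes name Bowtie2 2.2.8, HISAT2, StringTie 1.3.1 and DESeq2, with no role, and the paper names the Omicsmart platform for the bulk RNA-seq analysis. The genome build, annotation and counting settings are not given in the sources used here. Reads of paralogs or overlapping genes may have been split in ways that were not checked.

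Counts were filtered with filterByExpr (minimum count 10), scaled by TMM and compared with edgeR 4.0.16 (quasi-likelihood test, all 8 libraries, Benjamini-Hochberg adjustment over 10748 genes, threshold 0.05) in R 4.3.3. The design assumed counts, which held after rounding. Standard errors were derived from the fold change and the F statistic. The test was tested on simulated data. That simulation used the same dispersion for all genes and both groups, so it does not cover the unequal spread of the groups. Transcript lengths came from GENCODE M21. Depth was 15062023 to 20234477 counts per library, and libraries of a group differed by more than sampling noise (chi-square per degree of freedom 3.024 to 18.38). Alternatives were DESeq2 1.42.0, limma 3.58.1 voom with sample quality weights, other scalings, no count filter, a replicate block and each library left out.

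The members and lists were chosen with earlier results of these data known. Genes named are the members, list genes past the threshold, up to 4 abundant genes of each list, and the 5 genes most like Vegfa and Adm, of which 1 is not reported here. Other cell type markers, list genes at or near 0, and those said to be chosen after their values were seen fall outside this rule. For 3 listed symbols, the newer symbol in the table was used.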

Additional observations from a re-analysis of the deposited data

Results flagged for a closer look

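Adm in PBS replicate 4, at 3.02 CPM, lay apart from the other PBS libraries. The gene and the library were singled out beforehand from an earlier analysis of the same data, so this restates that choice. Its gap to the nearest of them took 0.914 of the range of the group, above Dixon's 95% critical value for 4 samples. By chance, about 1 in 20 groups passes that value, and nothing is read from it for a value chosen in this way. No other library passed it among the 14 groups examined (7 tested members in each treatment). Without it, the log2 fold change of Adm was 0.81.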

How the results depend on the processing

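Vegfa and Adm were higher under rFSTL1 in every setting run, and both were called except Adm without PBS replicate 2, PBS replicate 3 or rFSTL1 replicate 3. The 37 genes called became 197 by DESeq2, 454 by limma voom, 56 with upper-quartile scaling and 127 without the count filter, and 11 to 99 without 1 library. They were 24, 11, 12 and 12 without PBS replicates 1 to 4, and 99, 90, 16 and 41 without rFSTL1 replicates 1 to 4. The members called were 1 to 2 without 1 library. The hypoxia-inducible genes called were 9 by DESeq2, 10 by limma voom, 9 without the count filter and 2 to 6 without 1 library, with 2 without PBS replicate 2, PBS replicate 3 or rFSTL1 replicate 3. The other angiogenic genes called were 4 by DESeq2, 4 by limma voom, 2 without the count filter and 0 to 2 without 1 library, with 2 without rFSTL1 replicate 1 or 2. These last settings, for both lists, were chosen after seeing the data. What causes these shifts was not tested. The sign of the fold change of Nrp2 turned with upper-quartile scaling (0.0046), which moved the median of all genes by 0.011. Without 1 library it ran from -0.020 to 0.0045 for Nrp2, from -0.073 to 0.019 for Nrp1 and from -0.18 to 0.0033 for Calcrl. It was 0.81 to 1.11 for Adm, 0.41 to 0.94 for Flt1 and 0.11 to 0.21 for Vegfb.

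The correlation of the deviations of same-numbered libraries was -0.0184 to -0.000288, so no shared deviation was seen. Whether same-numbered libraries were prepared together is not given in the sources used here. With the replicate number as a block, 41 genes were called, Vegfa and Adm among them, and 6 hypoxia-inducible genes.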
